A study of Macaca mulatta with 7 samples.

Results

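Kinesins are motor proteins that hydrolyse ATP on microtubules, and most walk toward the plus end to carry cargo, slide filaments or take microtubule ends apart. In the testis they build the spindles of dividing germ cells, move vesicles and RNA, and serve the manchette and the flagellum of the spermatid. Mature sperm transcribe very little, so their RNA is largely what was left from spermatogenesis. The kinesin genes were taken from the gene table of total RNA sequencing of rhesus macaque (Macaca mulatta) sperm, as symbols of KIF followed by a number, with KIFC1, KIFC2 and KIFC3. This gave 42 of the 18282 genes listed on a single strand.

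Sperm of 7 animals were sequenced, 1 library each, 4 of a group labelled Control and 3 of a group labelled Maltreated. The title of the series asks what early life stress leaves in primate germline RNA, and the labels say no more about the treatment, strain or genotype. The Control animals were 5.88, 5.82, 5.72 and 5.92 years old and the Maltreated animals 5.67, 5.71 and 5.78 years. Before TRIzol extraction of the RNA all sperm went through PureSperm 40/80 gradients, a method that leaves other cells of the ejaculate behind. Each library has its own age in the labels, and p-values measure the spread between these 7 samples.

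Sense counts, which are reads on the strand of the gene, summed to 5316383 to 6160996 in Control 2, Control 3, Control 4 and Maltreated 2, 9847743 in Control 1, 10690315 in Maltreated 3 and 30715268 in Maltreated 1. The 12 sperm markers, such as the protamines PRM1 and PRM2, took 47199 to 99979 CPM (counts scaled to the sense total of the library) and none was at 0 in all libraries. The 16 leukocyte markers summed to 706 CPM in Control 4 and 1109 CPM in Maltreated 3, against 6.60 to 66.1 CPM in the other libraries. Markers of testis somatic cells summed to 23.9 to 109 CPM with INSL3 at 0 throughout, those of epithelium and accessory glands to 6.93 to 297.6 CPM, and those of neurons to 12.5 to 67.7 CPM. In bulk RNA of this kind, fewer cells of a type and less RNA per cell cannot be told apart.

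Transcripts of the kinesin family were found broadly in sperm. All 42 genes had sense counts in at least 1 library, and 37 of them (88.1%) had counts in all 7, against 45.9% of all genes. This comparison was not matched for exon length or number of exons. Some of the 37 had very few counts in a library, such as KIF19 with 1 and KIF21A with 2 in Maltreated 2. Levels are given in RPKM, sense counts scaled to exon length in kilobases and to the library's sense total. The median of the mean levels was 4.42 RPKM for kinesin genes and 1.25 RPKM for all genes. Of the kinesin genes 32 stood above the median of all genes, 8 were in the top 10% of genes and 7 were under 1 RPKM on average. The family as a whole took 2988 ± 200.5 CPM (SD, n = 4) in Control and 3008 ± 134 CPM (SD, n = 3) in Maltreated libraries, a difference far below the spread within each group.

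The 9 cilium and flagellum kinesins held 255 to 348 RPKM of a family sum of 540 to 653 RPKM. KIF17, a kinesin-2 that carries cargo into cilia and acts in spermatids, was the highest of all at rank 385 of the 18282 genes. Its level was 107, 129, 138 and 116 RPKM in Control 1 to 4 and 133, 95.4 and 112 RPKM in Maltreated 1 to 3. KIF6, a kinesin-9 linked to motile cilia, stood at 116, 94.5, 103 and 101 RPKM in Control and at 140, 89.9 and 68.5 RPKM in Maltreated libraries. KIF17 and KIF6 ranked above every other kinesin gene in 7 of 7 libraries and together took 33.02 to 44.5% of the family's summed RPKM. Their own order was not firm, since KIF17 was above KIF6 in 5 of 7 libraries and their means, 119 ± 15.5 and 102 ± 22.1 RPKM (SD, n = 7), lie within their spread.

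KIF24, a microtubule-depolymerising kinesin-13 that restrains cilium assembly at the centriole, varied little. It stood at 31.9, 33.8, 40.2 and 26.3 RPKM in Control and at 30.9, 33.6 and 30.5 RPKM in Maltreated libraries. Its coefficient of variation over the 7 libraries, 13.05%, was the lowest of the family beside that of KIF17 at 13.07%. KIF3B, a subunit of the heterotrimeric motor of intraflagellar transport, stood at 18.3, 18.1, 13.98 and 21.8 RPKM in Control and at 18.0, 6.46 and 14.6 RPKM in Maltreated libraries. Its partner subunit KIF3A was much lower, with a mean of 3.22 ± 1.75 RPKM (SD, n = 7). KIF9, the other kinesin-9, had 8.50, 12.4, 13.3 and 10.8 RPKM in Control and 8.18, 28.1 and 15.4 RPKM in Maltreated libraries, so that Maltreated 2 stood apart. KIF27 was at 7.06 to 12.6 RPKM in Control 1 to 3 and at 34.9 RPKM in Control 4, and KIF19, which shortens cilia from their tips, averaged 3.20 RPKM.

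KIF7, the kinesin of Hedgehog signalling at the cilium tip, was the lowest member. It had 0 sense counts in Control 1, Control 2 and Control 3, which allows up to 0.305, 0.543 and 0.500 CPM at a limit of 3 counts. Control 4 had 21 counts, of which 20 lay on exon 3, and the Maltreated libraries had 6, 1 and 1. These limits cover counting error only.

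Among the 17 cargo kinesins, KIF1B, which moves mitochondria and synaptic vesicle precursors, led with 32.2, 39.2, 38.3 and 22.9 RPKM in Control and 33.4, 46.4 and 39.9 RPKM in Maltreated libraries. The groups overlap, with Control 4 lowest and Maltreated 2 highest. KIF16B, an endosome motor, followed at 9.85 ± 2.07 RPKM (SD, n = 7). KIF5B, the ubiquitous heavy chain of conventional kinesin, averaged 7.02 RPKM and was highest in Maltreated 3 at 16.5 RPKM, the library with the largest leukocyte marker sum. The part of those cells in this level was not tested. The heavy chains KIF5A and KIF5C averaged 4.12 and 1.29 RPKM. KIF1A, KIF1C, KIF26B and KIF12 averaged 0.571 to 0.960 RPKM, and KIF3C 0.182 RPKM.

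Some of the 16 division kinesins were not rare in these sperm libraries, while others were low. KIF22, KIFC1, KIF2B, KIF14, KIF18B, KIF4B, KIF4A and KIF20A averaged 4.72 down to 0.291 RPKM. KIF15, which helps hold the bipolar spindle, stood at 35.2, 25.0, 28.7 and 54.2 RPKM in Control and at 26.3, 31.8 and 30.4 RPKM in Maltreated libraries. KIF25, a minus-end kinesin-14 of centrosome positioning, had 24.7, 18.9, 25.5 and 31.2 RPKM in Control and 28.1, 68.5 and 33.1 RPKM in Maltreated libraries. KIF2C, the centromere depolymerase MCAK, had 31.8, 25.6, 33.7 and 17.7 RPKM against 47.6, 24.4 and 43.7 RPKM. In KIF15, KIF25 and KIF2C the groups overlap, and 1 library, Control 4 for KIF15 and KIF2C and Maltreated 2 for KIF25, lies at an end of the range.

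KIF23, the central spindle kinesin MKLP1, had 25.3, 28.2, 20.03 and 35.8 RPKM in Control and 17.9, 39.9 and 24.4 RPKM in Maltreated libraries. KIF20B, a kinesin-6 of cytokinesis, had 19.9, 9.14, 9.19 and 28.0 RPKM against 15.5, 13.2 and 13.4 RPKM. KIF11, the kinesin-5 that pushes spindle poles apart, averaged 7.05 RPKM, and KIF20A, the kinesin MKLP2, only 0.291 RPKM. From KIF1B to KIF2C the mean levels ran from 36.03 to 32.1 RPKM, and neighbours in this order do not differ beyond their spread.

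Other genes of dividing cells were as uneven. Of 24 spindle and proliferation genes SPC24 averaged 400.0 RPKM, BUB1 57.1 RPKM and BUB1B 53.5 RPKM, while MKI67 and SPC25 averaged 0.355 and 0.163 RPKM.

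**Figure D1:**
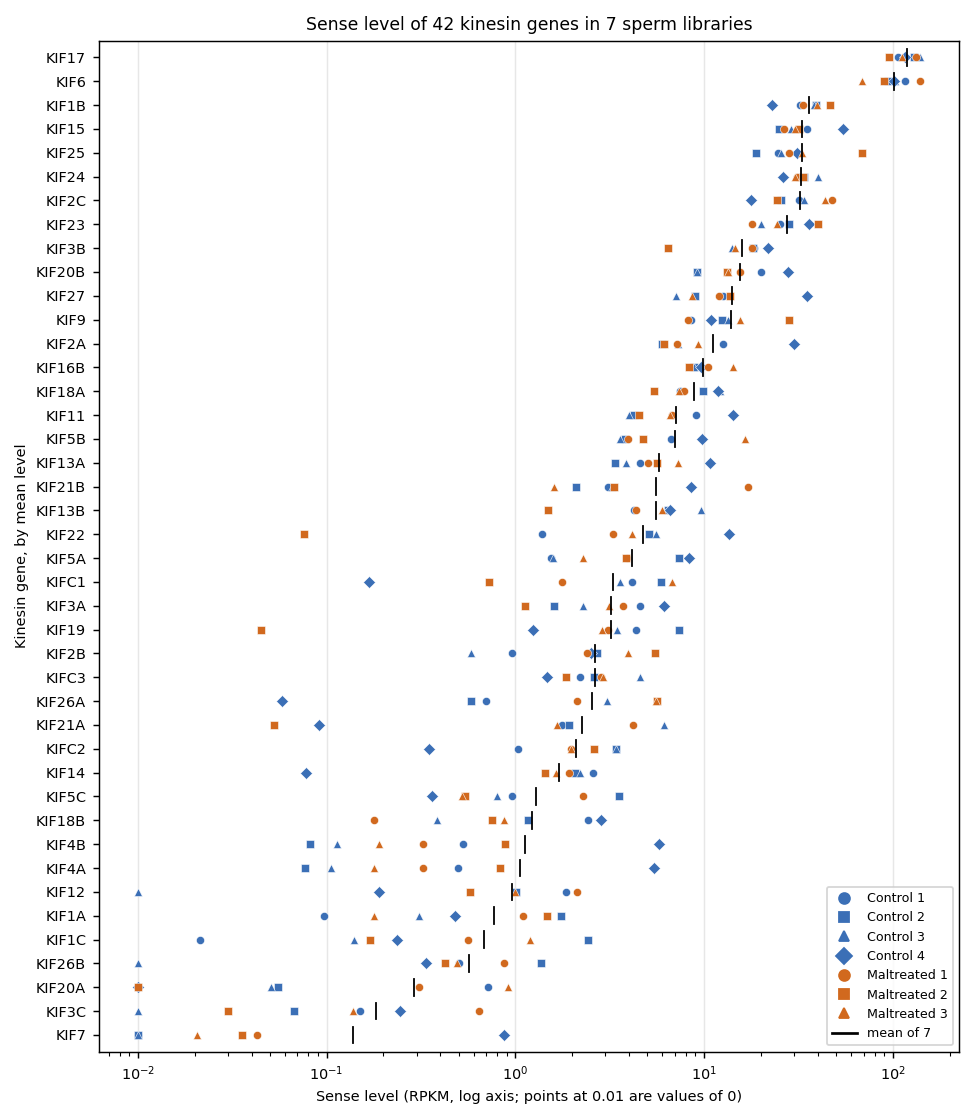
Sense level of each of the 42 kinesin genes (rows, by mean level) in RPKM on a log axis, with 1 point per library (blue Control, orange Maltreated) and a black bar at the mean of 7. KIF17 and KIF6 stand apart at the top at means of 119 and 102 RPKM, the groups interleave in nearly every row, and the spread between libraries widens toward KIF7 at the bottom.

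Summed by role, the cargo kinesins held 82.0 ± 8.82 RPKM in Control (SD, n = 4) and 95.8 ± 8.25 RPKM in Maltreated libraries (SD, n = 3). The cilium and flagellum kinesins held 312 ± 9.44 and 291 ± 50.4 RPKM, and the division kinesins 182 ± 49.6 and 186 ± 18.2 RPKM. In RPKM the ranges of the groups overlap for each role. In CPM, which does not divide by exon length, the cargo sums did not overlap, at 828, 1035, 1018 and 820 CPM in Control and 1062, 1113 and 1120 CPM in Maltreated libraries. KIF1B, whose own groups overlap, has the most counts of the cargo kinesins. It has 47901, or 31348 with each exon counted once. How often sums of other genes separate in this way was not tested. The sums of the other roles overlapped in CPM as well, at 1283 to 1363 against 1076 to 1455 CPM for cilium and flagellum and at 559 to 1098 against 640 to 742 CPM for division. Control 4 was the highest library for division kinesins at 253 RPKM, against 144 to 204 RPKM in the other libraries. It was also the highest library for 14 of the 42 genes, 8 of them division kinesins, among them KIF15, KIF20B, KIF11 and KIF2A. These counts hold KIF4A and KIF4B separately, although both rest on the reads of 1 locus. Control 4 carries a raised leukocyte marker sum, as given above, with CD74 alone at 502 CPM. Its testis somatic marker sum was also the highest, at 109 CPM against 23.9 to 55.9 CPM elsewhere. So was its neuron marker sum, at 67.7 CPM against 12.5 to 37.8 CPM. The part of other cells in these levels was not tested. Counts lay on 35.4% of the 884 kinesin exons in Control 4, 35.7% in Maltreated 2 and 39.03% in Control 3, and on 62.1% in Control 2, which has a like depth.

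**Figure D2:**
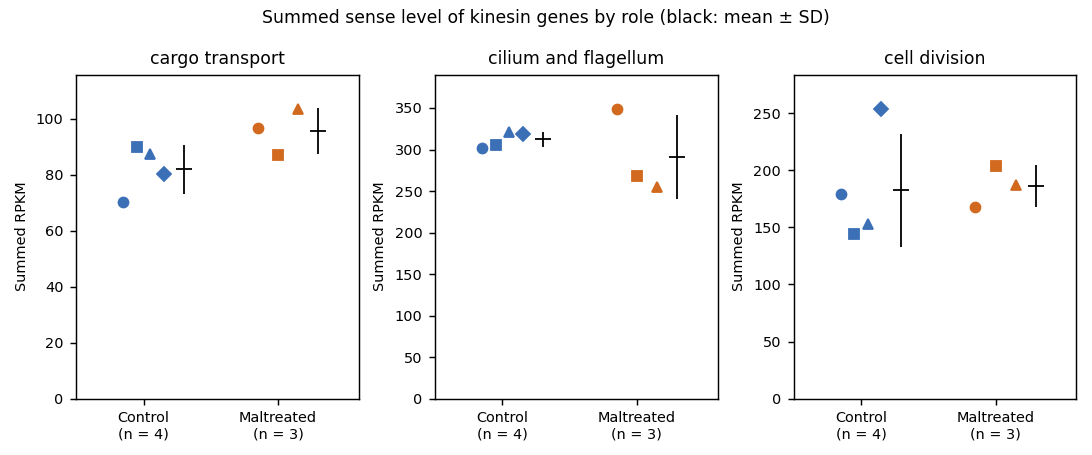
Summed RPKM of the cargo, cilium and flagellum, and division kinesins in each library (marker shapes give the replicate), with mean ± SD in black. In RPKM both groups overlap for each role, and Control 4 (diamond) stands highest for division at 253 RPKM.

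Counts were not spread along the transcripts. KIF17 (chromosome 1, 19368419 to 19422895, minus strand, in the coordinates of the files, for which no source used here names a build) has 15 exons. Its exons 5 and 6 hold 87.7% of its sense counts on 15.1% of its exon length, and in single libraries 74.9% in Control 4 to 94.3% in Maltreated 3. Exon 5, of 452 bases at 19408945 to 19409396, carries 69.5% of the counts, and is the fullest exon in 7 of 7 libraries. Exon 15, with 20.1% of the length, holds 0.711%.

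Summed over libraries, KIF6 (chromosome 6, 40176002 to 40572657, minus strand) has its counts on exons 4 to 13 (85.9%) and on exons 17 to 19 (12.5%). Maltreated 1 holds 16945 of its 33118 counts. In single libraries exons 4 to 13 held 70.3% in Control 4 to 93.0% in Maltreated 1. Exons 17 to 19 held 6.18% in Maltreated 1 to 25.8% in Control 2. The long exon 23 of 1456 bases, 36.9% of the length, holds 0.112% of the counts. KIF24 (chromosome 9, 61201661 to 61278256, minus strand) holds 96.3% of its counts on exons 3 to 9, which are 14.7% of its length, within 95.7 to 97.5% in every library. Its 2 longest exons, 11 and 13, of 2243 and 1944 bases, are nearly empty at 102 and 56 counts of 14245. The share of KIF24 on exons 3 to 9 is thus nearly the same in both groups, although these exons were chosen from the counts of all libraries together. Within them exon 5 held 22.4% in Control 4 and 30.6 to 35.2% in the other libraries.

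In KIF25 (chromosome 6, 169268114 to 169294611, plus strand) exons 1 to 4 hold 98.7% of the counts and exons 5 to 9 the rest. KIF20B holds 89.6% on exons 5 to 7, KIF3B 80.5% on exons 2 to 6 and KIF11 61.1% on exon 16 alone. KIF15 holds 58.4% on exons 4 to 7 and 22.1% on exons 25 to 28. These shares are summed over libraries. In single libraries exons 25 to 28 of KIF15 held 8.82% in Control 3 to 28.3% in Maltreated 1. Exon 16 of KIF11 held 31.4% in Control 3 to 70.8% in Maltreated 3. The windows thus lie in different parts of different genes, and the last exon is poor in most of them.

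Summed over libraries, KIF2C and KIF9 were filled more evenly. In KIF2C exons 3 to 20 hold 96.8% of the counts on 67.7% of the length, and in KIF9 exons 2 to 20 hold 98.2% on 69.2%. Maltreated 1 holds 4128 of the counts of KIF2C. In single libraries the fullest exon of KIF2C held 9.76% in Maltreated 1 to 22.6% in Control 4, where 8 of 21 exons had counts. That of KIF9 held 8% in Maltreated 3 to 44.3% in Control 4, where 4 of 21 exons had counts, so the even filling did not hold in each library.

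Control 4 differed from the other libraries in where its reads fell on the division kinesins KIF23 and KIF18A and on KIF3A of the cilium group. In KIF23 (chromosome 14, 46311419 to 46345910, plus strand) exons 13 and 14 hold 71.0 to 92.5% of the counts in the other 6 libraries and 24.7% in Control 4, where exons 8 and 9 hold 39.6%. In KIF18A exons 10 to 13 hold 85.3 to 94.7% in the other libraries and 20.9% in Control 4, where exons 4 and 5 hold 79.1%. In KIF3A exons 2 and 3 hold all counts of Control 4 and 0 to 6.73% elsewhere. A level of these genes in Control 4 therefore rests on other exons than in the other 6 libraries. Such shifts were not particular to Control 4. Exons 5 to 9 of KIF27 held 65.2% in Control 3 and 10.4 to 27.7% elsewhere. Exons 15 and 16 of KIF22 held 67.6% in Control 3 and 0 to 6.45% elsewhere. In KIF5A exons 3 to 7 held 44.4% in Control 2 and 0 to 11.9% elsewhere.

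Uneven filling was not particular to kinesins. Over 30 kinesin genes with at least 8 exons and 500 counts, the fullest pair of neighbouring exons held a median of 32.9% of the counts, against 41.4% over 5131 genes chosen in the same way. The last exon held less than its share of length in 29 of these 30 genes (96.7%) and in 97.8% of the 5131.

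**Figure D3:**
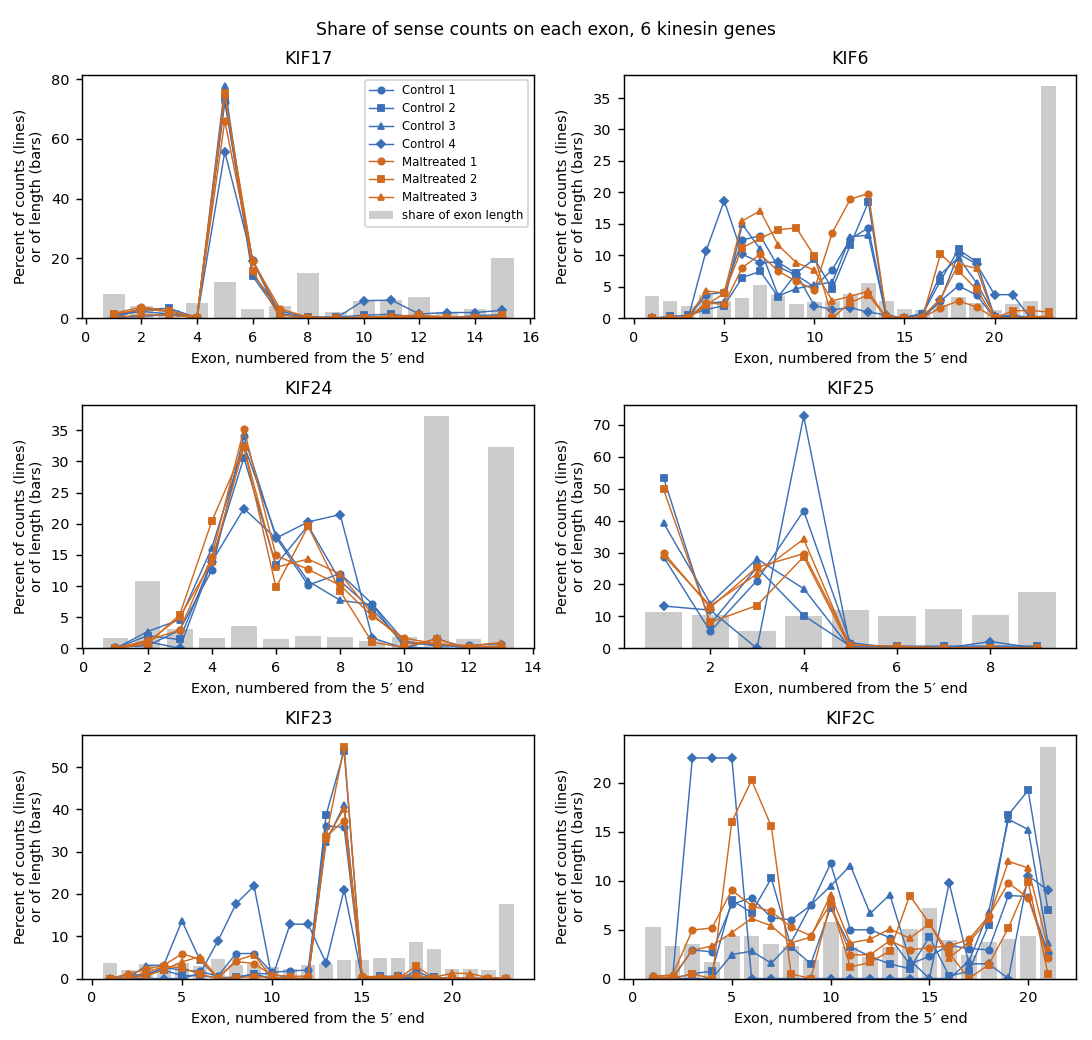
Percent of a gene's sense counts on each exon (lines, 1 per library, blue Control and orange Maltreated) for 6 kinesin genes, with the exon's share of the length as grey bars. KIF17, KIF24 and KIF25 peak on the same few exons in both groups, the long last exons of KIF6 and KIF24 stay near 0, and Control 4 (diamonds) leaves the peak of KIF23 at exons 13 and 14.

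No kinesin gene passed the test between Maltreated and Control. Of the 42 genes 39 had enough counts for the edgeR quasi-likelihood test, all but KIF20A, KIF3C and KIF7. At a Benjamini-Hochberg adjusted p of 0.05 over 10719 genes, 0 of 39 were called, and percent called over all genes was 0 as well. At an unadjusted p of 0.05 it was again 0 of 39, against 1.78% of all genes. None of the 39 had groups that did not overlap, against 3.59% of all genes. The fitted log2 fold change was above 0 for 14 and below 0 for 25, with a median of -0.14 against -0.02 over all genes tested. The smallest adjusted p among them was 0.999.

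By role, 10 of 16 tested cargo kinesins had a log2 fold change above 0 (median 0.08), against 1 of 8 cilium and flagellum kinesins (median -0.31) and 3 of 15 division kinesins (median -0.31). Among subfamilies, the 3 kinesin-8 genes KIF18A, KIF18B and KIF19 had values below 0, as had the tested kinesin-2 genes KIF3A, KIF3B and KIF17. Over all genes tested, 5220 of 10719 values were above 0. None of the values by role or subfamily passed the test, and signs by role were not compared between fits.

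Of the genes with values above 0, KIF25 had the smallest p, with 25.1 ± 5.05 RPKM in Control and 43.2 ± 22.0 RPKM in Maltreated libraries and a log2 fold change of 0.77 ± 0.40 (SE, edgeR unadjusted p = 0.0810). It rests on Maltreated 2, without which the value is 0.21. KIF26A, a kinesin without motor activity, had 0.701, 0.582, 3.06 and 0.0577 RPKM in Control and 2.12, 5.60 and 5.59 RPKM in Maltreated libraries, with a log2 fold change of 1.95 ± 1.02 (SE, edgeR unadjusted p = 0.0837). Control 3 lies above Maltreated 1, so the groups overlap. The values of KIF2B, a kinetochore depolymerase, KIF9 and KIF2C were 1.21, 0.59 and 0.46, and that of KIF9 turned to -0.025 without Maltreated 2.

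Of the genes with values below 0, KIF18B, which limits astral microtubules, had 2.44, 1.16, 0.384 and 2.83 RPKM in Control and 0.178, 0.748 and 0.873 RPKM in Maltreated libraries, with a log2 fold change of -1.56 ± 0.97 (SE). In Control 4 its counts were 4 on each of its 18 exons. KIF13B, a motor that carries the scaffold protein Dlg, stood at -0.82 ± 0.52 (SE), with the lowest level in Maltreated 2 at 1.49 RPKM. KIF2A, a depolymerase of spindle poles, stood at -0.92 ± 0.59 (SE), and at -0.28 without Control 4, where it had 29.9 RPKM against 5.98 to 12.6 RPKM elsewhere. KIF18A, which aligns chromosomes, and KIF22, which binds chromosome arms, stood at -0.62 ± 0.46 and -1.39 ± 1.04 (SE).

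KIF4A and KIF4B, chromokinesins, cannot be told apart here. Both are listed as single exons that overlap on the plus strand of chromosome 5, and their sense counts are the same in 6 of 7 libraries, with 136 in Control 4 and 2 to 24 in 5 of the others. The numbers of tested genes and of values below 0 hold each of them separately, although their reads come from the same locus.

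**Figure D4:**
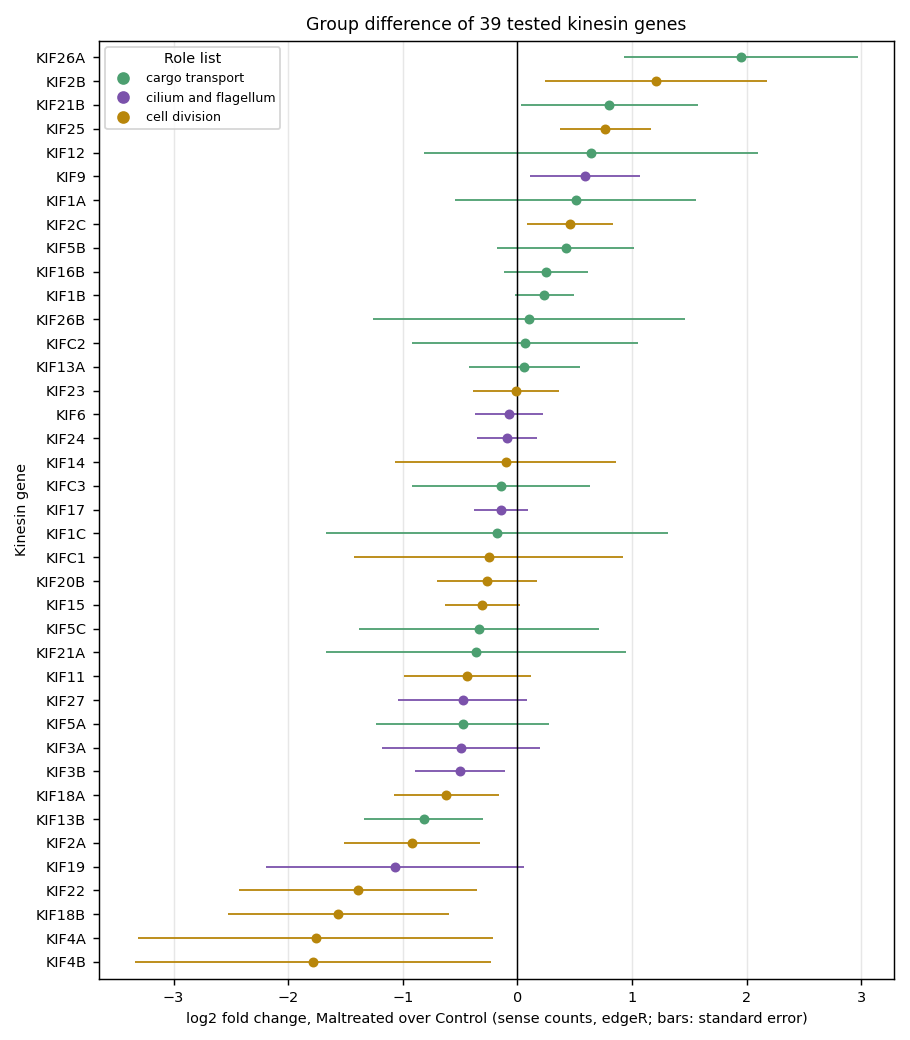
Log2 fold change of sense counts, Maltreated over Control, with its standard error for the 39 tested kinesin genes, coloured by role. KIF26A lies at the top at 1.95 and KIF4B at the bottom, 25 of 39 values are below 0, and none passed the test.

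Reads on the opposite strand (antisense) were few in most kinesin genes. They made up 2.31 to 4.67% of the family's reads per library, against 6.15 to 12.1% over all genes. The median share per gene was 4.73% for the 42 kinesin genes and 6.37% for the 13180 genes with 100 or more counts. Only KIF7 and KIF20A had more antisense than sense counts, 4.76% of kinesin genes against 11.9% of all.

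KIF7 had 91 antisense and 29 sense counts (75.8%). An exon of TICRR, on the opposite strand, overlaps 1 exon of KIF7, so the 2 genes' reads cannot be told apart there. Antisense counts of KIF7 also lay outside this overlap, at 2 on each of its 19 exons in Control 1. KIF20A had 245 antisense counts against 88 (73.6%), in Control 2, Control 3, Control 4 and Maltreated 1 only. KIF1C, a vesicle motor, reached 38.2%, KIF3C 37.9% with 77 of its 81 antisense counts in Control 4, and KIFC2 20.8%. An exon of FOXH1 overlaps 1 exon of KIFC2 on the opposite strand. Antisense counts of KIFC2 also lay outside it, at 1 on each of 17 exons in Control 2 and in Control 4. The highest shares thus come from genes with few reads or from single libraries.

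The antisense test covered 4382 genes and 16 kinesin genes, and 0 of 16 passed at an adjusted p of 0.05, as did 0 of all. KIF13A, a motor of endosomes, was the only kinesin gene under an unadjusted p of 0.05 and the only one without overlap of the groups, against 2.51% and 4.36% of all genes. Its antisense counts were 12, 2, 1 and 0 in Control and 45, 328 and 79 in Maltreated libraries, with a log2 fold change of 5.37 ± 1.71 (SE, edgeR unadjusted p = 0.00845, adjusted p = 0.998). In Maltreated 2 the reads were 8 on every one of the 40 exons, in Maltreated 3 they lay on exons 32 to 38, and in Maltreated 1 on 17 exons. The sense level of KIF13A did not follow, at 5.63 ± 3.40 RPKM in Control and 6.005 ± 1.16 RPKM in Maltreated libraries. KIFC2 and KIF20A had antisense log2 fold changes of -3.82 ± 1.99 and -2.46 ± 2.20 (SE), with adjusted p of 0.998.

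Such equal counts recurred. A gene's reads in a library had 1 value on at least 80% of its exons in 20 cases from 13 kinesin genes for antisense reads and in 8 cases from 3 genes for sense reads, over genes with at least 8 exons and at least 8 counts. KIF26A accounts for 6 of the sense cases, with 3, 8, 15 and 26 reads on each of its 15 exons in Control 1, Control 3, Maltreated 2 and Maltreated 3. Its exons were covered in full in 6 of 7 libraries at 21 to 425 counts, whereas KIF6 was covered to 43.4% to 68.1% at 2061 to 16945 counts. Antisense reads of KIF20A were 5 on each of 19 exons in Control 2 and 2 on each in Control 3, and those of KIF3A were 14 on each of 15 exons in Control 1. How such equal counts arise was not tested, and how often they occur over all genes was not counted. The gene count is the sum over exons, so it may exceed the number of separate reads.

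**Figure D5:**
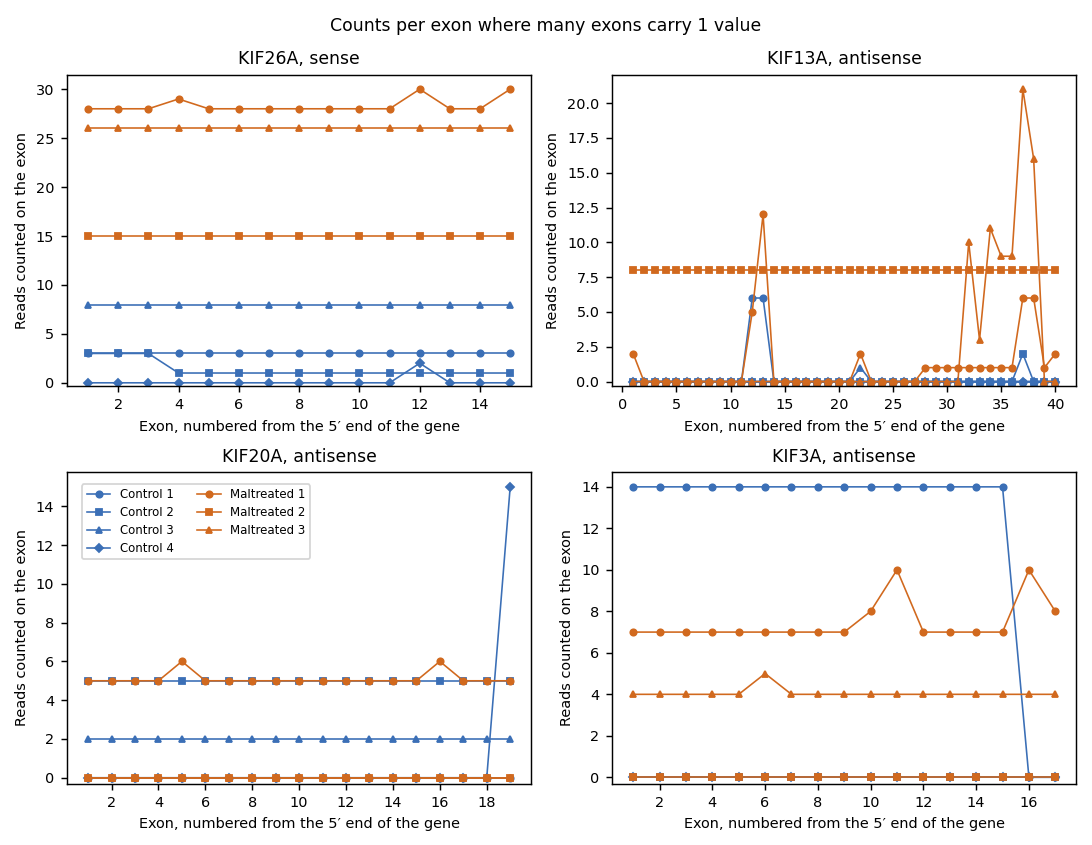
Reads counted on each exon for sense reads of KIF26A and antisense reads of KIF13A, KIF20A and KIF3A, with 1 line per library (blue Control, orange Maltreated). Flat lines, such as 26 on every exon of KIF26A in Maltreated 3 and 8 on every exon of KIF13A in Maltreated 2, show 1 value on nearly all exons, unlike the peaks of KIF17.

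The genes that work with kinesins gave no call either. Of 17 tested light chains, partners and adaptors 12 had a log2 fold change above 0 (median 0.20), and KIFAP3, which binds the KIF3 motor, averaged 10.9 RPKM. TRAK2, a mitochondrial adaptor, stood at 0.72.

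Among dynein and dynactin genes, the motors of opposite direction, 16 of 26 values were above 0 (median 0.17). DCTN1, the large dynactin subunit, stood at 1.73 ± 0.59 (SE, edgeR adjusted p = 0.999) and at 0.84 without Maltreated 3, and ACTR10 at -1.13. Of 21 intraflagellar transport genes, the cargo trains of kinesin-2, 9 were above 0 (median -0.07), with IFT20 at -1.70 and WDR35 at -0.96. IFT88 averaged 302.5 RPKM, far above its motor subunits KIF3A and KIF3B.

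Of 15 tubulins 11 were above 0 (median 0.38). In 3 of the 15, TUBA1C, TUBB3 and TUBB4A, the groups did not overlap in CPM on TMM library sizes, against 3.59% of all genes. TUBA1C stood at 2.31 ± 1.01 (SE, edgeR adjusted p = 0.999) and at 1.31 without Maltreated 3, where it had 17.6 RPKM, and in RPKM its groups overlap, with 2.45 in Control 2 and 2.41 in Maltreated 2. TUBB3 and TUBB4A averaged 1.26 and 0.804 RPKM. TUBA1B stood at 1.82. Of 10 manchette genes 3 were above 0 (median -0.32), with KATNAL2 at -0.77, and of 21 spindle genes 8 were above 0 (median -0.24), with SPC24 at -0.37 and NDC80 at -0.69. TRAK2, DCTN1, TUBA1C and TUBA1B are highest in Maltreated 3, the library with the largest leukocyte marker sum, and the part of those cells in these values was not tested.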

How the data were processed

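Total RNA of sperm was compared between Control (4) and Maltreated (3) samples, with groups taken from titles. The deposited files give raw read counts per exon on each strand and, in a gene table, sense and antisense counts summed over exon entries. The deposited files also give the covered fraction of each exon and gene, which the authors computed from covered bases over length. STAR, featureCounts and bedtools are named in the submitters' processing notes, without version or order. The genome build and strandedness of the kit are not given in the sources used here. RTN3 and ZC3HAV1, listed on both strands, were left out. Gene counts are sums over exon entries, so a read counted on several exons enters once for each, and 6 kinesin genes hold repeated exon entries.

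RPKM were computed from the sense counts divided by kilobases of exon entries and by the library's sense total. Exon shares used each exon once, numbered from the 5′ end. Covered percentages are the deposited covered fraction of a gene, over all its exon entries, repeated ones included. Groups were compared with edgeR 4.0.16 (R 4.3.3, TMM, filterByExpr with minimum count 10 and total 15, quasi-likelihood F test, Benjamini-Hochberg over all genes tested). The code was run on simulated counts with large changes and less spread than these data. That run does not show what size of change could be found here. The coefficient of variation that edgeR fitted between libraries was 0.858 for sense and 1.37 for antisense counts. Symbols were matched to the supplied RefSeq table (42 of 42).

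The kinesin genes and the lists of roles, partners and markers were chosen with earlier results of these data known. Named were the 10 highest kinesin genes, the 5 in each direction with the smallest unadjusted p, 3 by the antisense test, 5 by antisense share and 2 per partner list. Other genes were named after their values were seen. The alternatives were other scalings, the DESeq2 1.42.0 Wald test, limma 3.58.1 voom, other filters, a replicate block, age, left-out libraries and other exon counts. Depth ran from 5316383 to 30715268 sense counts, and floors of 3 counts cover counting error only. Values of some partner genes are not reported here.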

Additional observations from a re-analysis of the deposited data

Results flagged for a closer look

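In 4 of 28 sets of Control levels examined, 1 of the 4 libraries lay far from the rest of its group. The cut-off gives about 1 in 20 by chance only for normally spread values. KIF20A, KIF7 and KIF1C were near 0 in most Control libraries, so the 4 of 28 cannot be set against that rate. KIF13A stood at 10.7 RPKM in Control 4, against 3.39 to 4.59 RPKM in the other Control libraries. KIF20A stood at 0.712 RPKM in Control 1, against 0 to 0.0552 RPKM. KIF7 stood at 0.869 RPKM in Control 4, with 0 in the others, and KIF1C at 2.42 RPKM in Control 2, against 0.0213 to 0.236 RPKM.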

How the results depend on the processing

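No kinesin gene passed the test on either strand under any of 19 alternatives for sense and 16 for antisense counts. Over all genes, 0 were called in the sense comparison except 3 with the DESeq2 Wald test and 1 with age as a covariate, and 0 in the antisense comparison except 13 with DESeq2 and 24 without a filter, and the cause was not tested. Leaving out each library in turn gave 0 calls on both strands. At an unadjusted p under 0.05 edgeR gave 191 sense and 110 antisense genes, DESeq2 327 and 212, and voom 352 and 232. The antisense value of KIF13A ran from 2.82 to 6.80 over 16 alternatives, with adjusted p from 0.0749 to 1.000.

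Among the named kinesin genes KIF9 turned to -0.025 without Maltreated 2 (to 0.92 without Maltreated 1) and to -0.18 with exon counts above the lower neighbour. KIF18B turned to 0.21 in the latter and to 0.39 with age as a covariate, where KIF2A turned to 0.21. WDR35 turned to 0.60 with voom, 0.70 with the replicate block, 1.83 with age, 0.32 without Control 4 (-1.36 without Maltreated 1) and 0.42 without Control 4 and Maltreated 3. KIF26A had too few counts above the lower neighbour to be tested. The median of the kinesin genes, -0.14, turned to 0.03 with voom (all genes 0.13), 0.07 with the replicate block and 0.18 with age, so its sign depends on the fit. In these fits 23, 21 and 22 of 39 kinesin genes had values above 0, against 14 in the fit used above. In the other alternatives more values were below 0 than above it. With 3 shared numbers, same-numbered libraries had correlations of 0.11, 0.07 and -0.01 of their deviations. Pairs with unlike numbers ran from -0.14 (Control 1 and Maltreated 3) to 0.11 (Control 4 and Maltreated 3). So few pairs cannot decide whether same-numbered libraries share more than a name. The replicate block gave 0 calls, with 275 sense genes at an unadjusted p under 0.05.

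The mean summed RPKM of the family, 575, became 681 with each exon counted once and 580 with TMM sizes, and 562 to 581 without 1 library. The 10 highest kinesin genes were the same 10 in both of these scalings. Depth limits genes under 1 RPKM, where a few reads decide a library's level.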
